A study of Mus musculus with 6 samples.

Results

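The 39 genes described here encode the enzymes and regulators that burn and store sugar in skeletal muscle and that buffer its ATP. They were chosen by symbol from the 12353 genes listed in RNA sequencing of mouse gastrocnemius, a calf muscle made mostly of fast fibers. No measured value was in the rule, though earlier results of these data were known when the list was made. All 39 were found. They fall into 11 roles, namely the entry of glucose, upper glycolysis, the control of fructose 2,6-bisphosphate, lower glycolysis, lactate, glycerol phosphate, fructose bisphosphatase, glycogen breakdown, glycogen making, regulators bound to glycogen, and creatine and AMP. The study compared muscle of 3 Nogo-/- mice, which carry a knockout of Rtn4, the gene of Nogo, and came from a line provided by another laboratory, with muscle of 3 wild-type Nogo+/+ mice, with 1 polyadenylated RNA library per mouse. It asked what the loss of Nogo, a membrane protein of the endoplasmic reticulum best known for blocking axon growth, does to the transcripts of muscle. The age and sex of these 6 mice are not given in the sources used here. Libraries are called Samples 4, 5 and 6 (Nogo-/-) and Samples 1, 2 and 3 (Nogo+/+), and the numbers pair no mice.

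Glycolysis splits glucose into pyruvate and yields ATP without oxygen, and fast fibers lean on it during short, hard work. The fuel comes either from blood glucose, trapped in the fiber by hexokinase, or from glycogen, which phosphorylase cuts and glycogen synthase builds. Phosphofructokinase is the main control point and is switched on by fructose 2,6-bisphosphate, which the 4 PFKFB enzymes make and remove. Creatine kinase refills ATP from phosphocreatine within a contraction, and AMP deaminase drains AMP when ATP runs low.

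Levels are given as FPKM, fragments scaled for the length of the transcript and the depth of the library, so that genes of different length can be set side by side. Fold changes are Nogo-/- over Nogo+/+ on the log2 scale of FPKM + 1 after quantile normalization over all 12353 genes, given with the standard error of limma. A gene was called changed at a limma p under 0.05 after Benjamini-Hochberg adjustment over all genes. Rtn4 (chr11:29692947-29744331, plus strand, GRCm38) was at 0.423, 0.312 and 0.368 FPKM in Samples 4, 5 and 6, against 414, 429 and 425 FPKM in Samples 1, 2 and 3. The level in Nogo-/- muscle was 0.0870% of that in Nogo+/+ muscle (log2 fold change −8.40, SE 0.08, adjusted p = 2.08e-10 from limma), so every library matched its label. The 1 added to FPKM draws the fold changes of genes at low FPKM toward 0. With 0.1 added instead, the log2 fold change was −10.2 for Rtn4, and −0.43 rather than −0.30 for Ppp1r3d.

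Depth was close to equal, at 13717000 to 14412000 fragments per Nogo-/- library and 13466000 to 14376000 per Nogo+/+ library, as estimated from the steps of low FPKM values. None of 12 fast fiber and 10 slow fiber markers passed in limma (1 and 3 at an unadjusted p under 0.05), and the summed FPKM of the fast list was 37083 ± 1435 in Nogo-/- and 37734 ± 355 in Nogo+/+ muscle (SD, n = 3 each). Of 8 endothelial markers 5 fell and 7 had an unadjusted p under 0.05, all of these lower, with sums of 174 to 209 FPKM in Nogo-/- and 227 to 255 FPKM in Nogo+/+ libraries. Of 8 smooth muscle and pericyte markers 2 fell, and all 8 had an unadjusted p under 0.05, 7 with a log2 fold change below 0 and Des, desmin, at 0.09. None of 10 adipocyte markers passed in limma, with 7 at an unadjusted p under 0.05, and their sum was 945 FPKM in Sample 4, 605 in Sample 5 and 493 in Sample 6, against 426 to 513 FPKM in Nogo+/+ libraries. Sample 6 stood apart in 8 skin keratinocyte markers, with a sum of 259 FPKM against at most 16.4 FPKM in any of the other 5 libraries, and 4 of these 8 were listed at 0 in at least 1 library. In such bulk libraries fewer cells of a type and less RNA per cell cannot be told apart, and the part of these cell types in the values below was not tested.

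Nogo-/- muscle had higher transcript levels of the hexokinase Hk2 and of the PFKFB genes Pfkfb1 and Pfkfb4, and lower levels of the glycogen-bound protein Stbd1. Among the abundant transcripts of glycolysis only Gpi1 and Pfkm were called, both with small rises, and no gene of glycogen breakdown was called. In all, 5 of the 39 genes rose (12.8%) and 1 fell (2.56%), beside 1.89% and 2.75% of all genes tested, so that 15.4% of these genes were called in either direction against 4.64% of all genes. At an unadjusted p under 0.05 there were 12 (30.8%), beside 20.5% of all genes. The FPKM of the groups did not overlap in 11 (28.2%), beside 25.9% of all genes, with 9 of the 11 higher (23.1%, beside 15.9%) and 2 lower (5.13%, beside 10% of all genes). Without Sample 6 all 6 calls held and Ppp1r3c joined them, which gave 7, whereas 4 genes were called without Sample 1, 3 without Sample 2 and 4 without Sample 3. The median log2 fold change was 0.00 over the 39 genes and −0.01 over all genes. Quantile normalization gives a change of 0 to a gene with the same ranks in both groups. The median of the 39 genes is the value of such a gene, Pgam2, and so is set by the method. It was 0.0178 on the FPKM as deposited and −0.0211 with libraries centred on their median. Their summed FPKM was 28744 ± 880 in Nogo-/- and 28785 ± 127 in Nogo+/+ muscle (SD, n = 3 each), and made up 6.85% to 7.19% of the summed FPKM of all genes in Nogo-/- libraries and 7.08% to 7.20% in Nogo+/+ libraries.

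**Figure D1:**
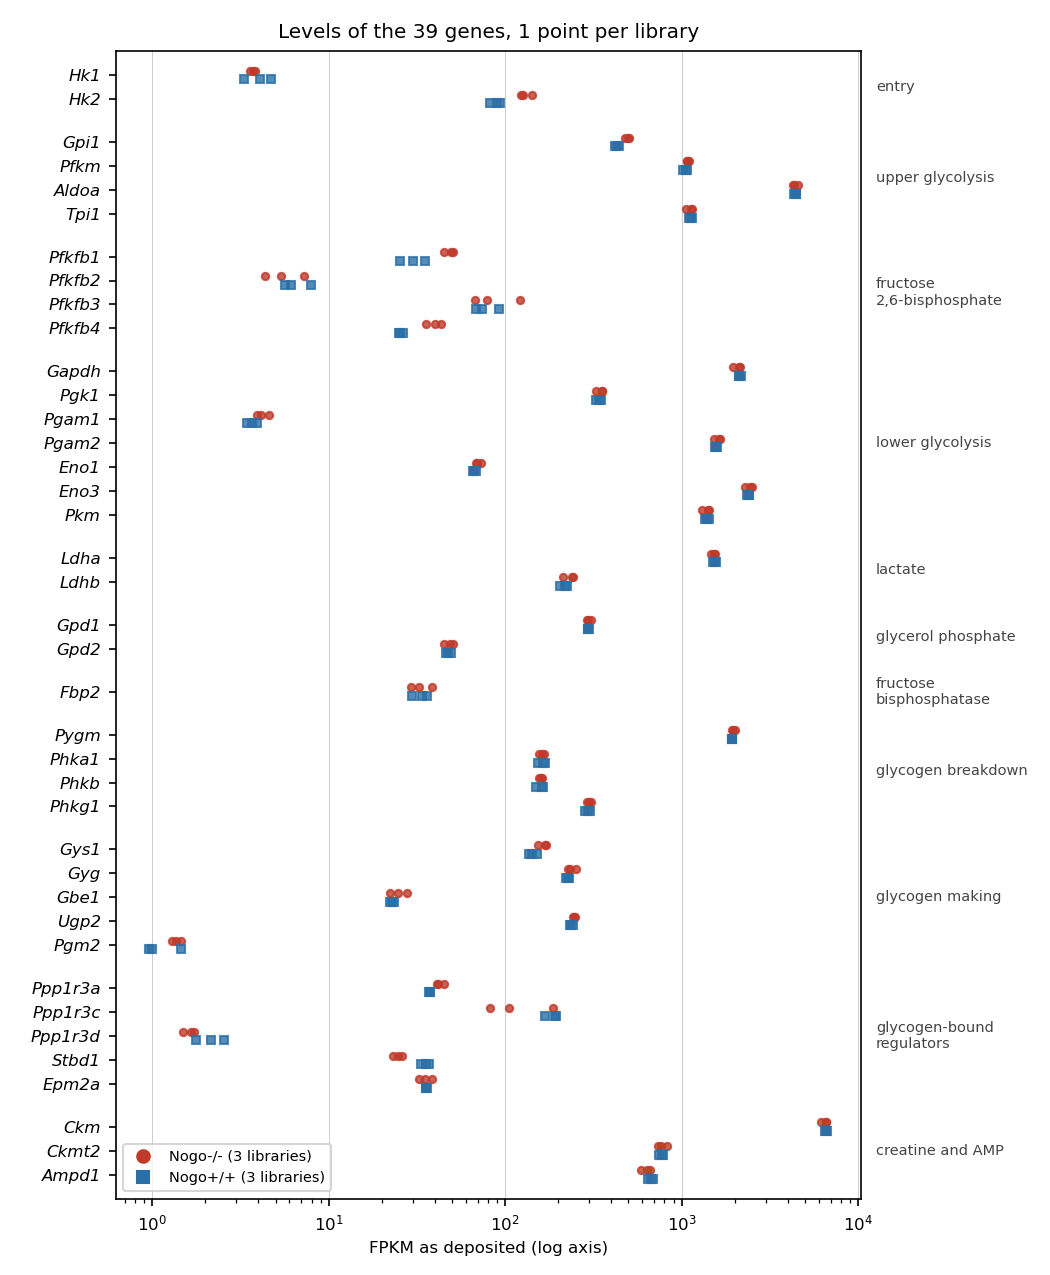
FPKM as deposited on a log axis for the 39 genes, ordered by role from top to bottom, with 1 point per library (red circles, 3 Nogo-/- libraries, drawn above the blue squares of the 3 Nogo+/+ libraries). Levels ran from 0.964 FPKM for Pgm2 in Sample 3 to 6678 FPKM for Ckm in Sample 2, and the points of both groups lay on top of each other for most genes over 1000 FPKM.

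Promoters are shown for Hk2, Pfkfb4 and Stbd1, which were called in every one of 12 alternative fits, for Gpi1, the called enzyme with a motif match and a single annotated start, and for Ppp1r3c, the glycogen regulator that varied most between Nogo-/- mice. Each window runs from 250 bases before to 50 bases after the RefSeq start site on GRCm38.p6, and is written 5′ to 3′ on the strand of the gene. Capitals mark the E-boxes CACGTG and CAGCTG, hexamers that basic helix-loop-helix factors bind, which read the same on both strands.
Hk2, chr6:82774405-82774704, minus strand: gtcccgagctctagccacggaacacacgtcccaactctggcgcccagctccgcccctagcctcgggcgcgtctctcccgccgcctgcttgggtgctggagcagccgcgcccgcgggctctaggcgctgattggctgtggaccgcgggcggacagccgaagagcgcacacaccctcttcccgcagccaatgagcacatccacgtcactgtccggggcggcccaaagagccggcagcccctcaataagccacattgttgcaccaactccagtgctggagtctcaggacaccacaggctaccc
Pfkfb4, chr9:108991652-108991951, plus strand: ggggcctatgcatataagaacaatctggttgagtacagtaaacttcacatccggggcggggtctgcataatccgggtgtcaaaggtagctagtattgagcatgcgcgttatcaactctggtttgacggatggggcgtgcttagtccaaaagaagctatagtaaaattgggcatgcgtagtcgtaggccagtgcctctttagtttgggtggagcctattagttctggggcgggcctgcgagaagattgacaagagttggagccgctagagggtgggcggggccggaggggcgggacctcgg
Stbd1, chr5:92602801-92603100, plus strand: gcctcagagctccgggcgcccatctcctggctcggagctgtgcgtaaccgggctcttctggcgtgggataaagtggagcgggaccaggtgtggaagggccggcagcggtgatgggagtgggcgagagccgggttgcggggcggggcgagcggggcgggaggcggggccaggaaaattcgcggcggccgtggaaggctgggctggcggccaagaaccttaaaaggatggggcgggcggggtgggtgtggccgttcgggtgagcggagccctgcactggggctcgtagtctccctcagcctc
Gpi1, chr7:34230287-34230586, minus strand: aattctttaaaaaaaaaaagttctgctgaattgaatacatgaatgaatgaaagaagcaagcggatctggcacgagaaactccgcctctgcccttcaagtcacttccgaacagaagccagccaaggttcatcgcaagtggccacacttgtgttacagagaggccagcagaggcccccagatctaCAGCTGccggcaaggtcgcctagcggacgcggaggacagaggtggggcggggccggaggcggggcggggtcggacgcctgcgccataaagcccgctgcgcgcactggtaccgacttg
Ppp1r3c, chr19:36736555-36736854, minus strand: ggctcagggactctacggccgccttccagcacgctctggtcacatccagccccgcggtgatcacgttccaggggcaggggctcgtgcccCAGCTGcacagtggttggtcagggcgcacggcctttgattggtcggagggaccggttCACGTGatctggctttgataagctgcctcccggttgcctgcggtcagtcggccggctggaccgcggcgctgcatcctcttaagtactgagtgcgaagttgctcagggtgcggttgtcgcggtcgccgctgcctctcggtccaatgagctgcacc

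With the start site as 0, CAGCTG begins at −67 in Gpi1 and at −161 in Ppp1r3c, and CACGTG begins at −104 in Ppp1r3c. The windows of Hk2, Pfkfb4 and Stbd1 hold none of these letters. RefSeq windows were matched for 37 of the 39 genes, with 55 windows in all. CACGTG stood in 14.5% of the 55 windows, beside 7.15% of all 32851 windows in the table, and CAGCTG in 30.9%, beside 16.3%. Counted per gene, 8 of 37 held CACGTG (21.6%, beside 8.09% of all 27025 genes in the table) and 17 of 37 held CAGCTG (45.9%, beside 18.3%). The 37 genes had more windows per gene than the table as a whole, which by itself raises their share per gene. The 27025 genes were also not limited to the 12353 listed in this muscle. The D-box, searched as TTATGTAA or TTACGTAA on both strands, was in 0 of the 55 windows, beside 1.06% of all windows. A match describes the letters only, and no binding was measured.

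Hk2 (chr6:82725025-82774454, minus strand) encodes the hexokinase of insulin-sensitive muscle, which traps glucose as glucose 6-phosphate. It was at 127, 141 and 124 FPKM in Samples 4, 5 and 6, against 93.2, 82.3 and 90.0 FPKM in Samples 1, 2 and 3. All 3 Nogo-/- libraries lay above all 3 Nogo+/+ libraries. The means were 131 ± 9.30 FPKM in Nogo-/- and 88.5 ± 5.60 FPKM in Nogo+/+ muscle (SD, n = 3 each), and the log2 fold change was 0.52 (SE 0.06, 95% confidence interval 0.38 to 0.66, adjusted p = 0.00283 from limma). Hk1, the hexokinase found in most tissues, was at 3.72 ± 0.11 FPKM in Nogo-/- and 4.03 ± 0.69 FPKM in Nogo+/+ muscle and did not pass (log2 fold change −0.12). Hk2 thus supplied 97.2% ± 0.18 of the summed FPKM of both hexokinases in Nogo-/- and 95.7% ± 0.46 in Nogo+/+ muscle, and the sum was 134 ± 9.33 FPKM against 92.5 ± 6.29 FPKM.

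Of the PFKFB genes, 2 of 4 rose. Pfkfb1 (chrX:150588229-150643878, plus strand), whose isoforms are known from liver and muscle, was at 50.7, 49.6 and 45.0 FPKM in Samples 4, 5 and 6, against 25.3, 30.0 and 35.2 FPKM in Samples 1, 2 and 3. The groups did not overlap, at 48.4 ± 3.01 FPKM in Nogo-/- and 30.2 ± 4.94 FPKM in Nogo+/+ muscle (SD, n = 3 each). The log2 fold change of Pfkfb1 was 0.63, the largest rise of the 39 (SE 0.11, interval 0.38 to 0.87, adjusted p = 0.0160 from limma). Its call was lost without Sample 2 (adjusted p = 0.0749, the highest of its 12 alternatives, whose lowest was 0.0134) and without Sample 4 (adjusted p = 0.0582). Pfkfb4 (chr9:108991778-109032228, plus strand) was at 40.2, 43.3 and 35.5 FPKM in Samples 4, 5 and 6, against 26.5, 25.2 and 25.3 FPKM in Samples 1, 2 and 3. Here too every Nogo-/- library lay above every Nogo+/+ library, with means of 39.7 ± 3.92 FPKM and 25.7 ± 0.74 FPKM (log2 fold change 0.55, SE 0.07, interval 0.40 to 0.71, adjusted p = 0.00330 from limma).

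Pfkfb3, the most abundant PFKFB transcript in this muscle, encodes the form that mostly makes fructose 2,6-bisphosphate. It was at 122, 67.3 and 78.6 FPKM in Samples 4, 5 and 6, against 68.7, 74.3 and 92.1 FPKM in Samples 1, 2 and 3. Sample 4, which also had the highest sum of adipocyte markers, was the highest of all libraries and Sample 5 the lowest, so the groups overlapped and Pfkfb3 did not pass (log2 fold change 0.11, interval −0.35 to 0.57, adjusted p = 0.814). Pfkfb2, the heart form, was at 5.66 ± 1.44 FPKM in Nogo-/- and 6.60 ± 1.22 FPKM in Nogo+/+ muscle and did not pass (log2 fold change −0.24). Summed over the 4 genes the level was 183 ± 30.5 FPKM in Nogo-/- and 141 ± 15.9 FPKM in Nogo+/+ muscle, with every Nogo-/- library above every Nogo+/+ library. Pfkfb1 made up 26.8% ± 3.24 of that sum in Nogo-/- against 21.4% ± 1.45 in Nogo+/+ muscle, Pfkfb4 22.0% ± 3.74 against 18.4% ± 2.35, and Pfkfb3 48.1% ± 7.83 against 55.5% ± 2.32.

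**Figure D2:**
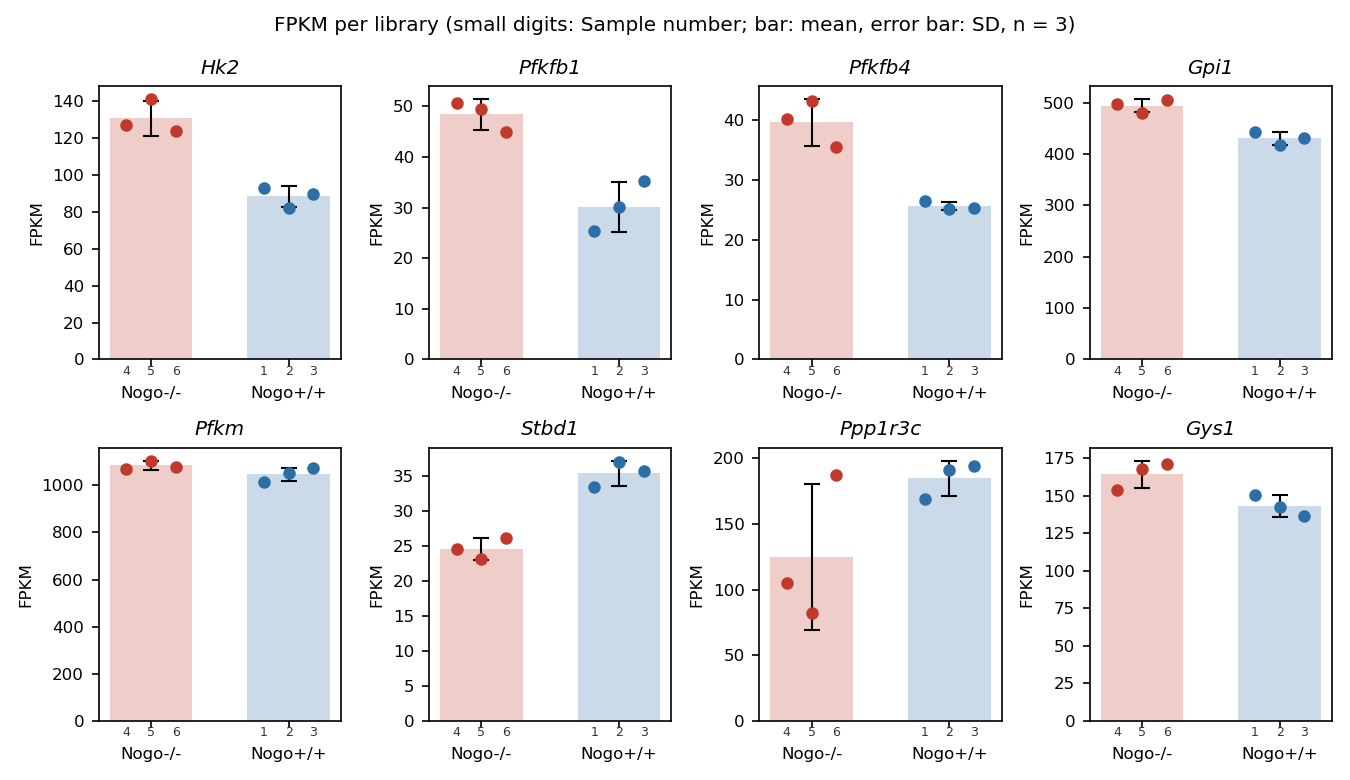
FPKM per library (points, with the Sample number beneath), mean (bar) and SD (error bar, n = 3) for the 6 called genes and for Ppp1r3c and Gys1, with Nogo-/- in red on the left and Nogo+/+ in blue on the right of each panel. The groups are apart for Hk2, Pfkfb1, Pfkfb4, Gpi1, Stbd1 and Gys1 and overlap for Pfkm and for Ppp1r3c, where Sample 6 lies at 188 FPKM among the Nogo+/+ values.

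In upper glycolysis, Gpi1 and Pfkm rose by small amounts and Aldoa and Tpi1 did not pass. Gpi1 (chr7:34201330-34230336, minus strand), glucose 6-phosphate isomerase, was at 497, 480 and 505 FPKM in Samples 4, 5 and 6, against 443, 417 and 432 FPKM in Samples 1, 2 and 3. The groups did not overlap, with means of 494 ± 12.9 FPKM in Nogo-/- and 431 ± 13.0 FPKM in Nogo+/+ muscle (log2 fold change 0.15, SE 0.03, interval 0.09 to 0.21, adjusted p = 0.0173 from limma). Its call was lost without Sample 1, 2 or 3 (adjusted p = 0.0652, 0.0828 and 0.0785), with libraries centred on their median in place of quantile normalization (0.0916), and in limma without a mean-variance trend (0.184, the highest of its 12 alternatives, whose lowest was 0.0142). Pfkm (chr15:98092589-98132451, plus strand), the muscle phosphofructokinase, was at 1070, 1105 and 1080 FPKM in Samples 4, 5 and 6, against 1016, 1053 and 1072 FPKM in Samples 1, 2 and 3. The groups overlapped, since Sample 4 lay below Sample 3, and the mean in Nogo-/- muscle was 103.7% of that in Nogo+/+ muscle.

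The call on Pfkm rested on the scaling. Its log2 fold change was 0.11 after quantile normalization (SE 0.02, interval 0.07 to 0.16, adjusted p = 0.0223 from limma), 0.05 on the FPKM as deposited (adjusted p = 0.388) and 0.01 with libraries centred on their median (adjusted p = 0.899). It was also lost in limma without a trend (adjusted p = 0.293) and without Sample 1, 2 or 3 (0.0861, 0.117 and 0.0892), and its lowest adjusted p over the 12 alternatives was 0.0140. Aldoa, the muscle aldolase and the most abundant glycolytic transcript, was at 4350, 4289 and 4571 FPKM in Samples 4, 5 and 6, against 4459, 4442 and 4363 FPKM in Samples 1, 2 and 3. The groups overlapped, and its log2 fold change was 0.03 (adjusted p = 0.654). Tpi1, triose phosphate isomerase, was at 1114 ± 46.9 FPKM in Nogo-/- and 1127 ± 17.5 FPKM in Nogo+/+ muscle, with a log2 fold change of 0.02.

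None of the 7 genes of lower glycolysis passed in limma, with only Gapdh at an unadjusted p under 0.05. Their log2 fold changes ran from −0.08 for Gapdh to 0.13 for Pgam1, with a median of −0.02. Gapdh, glyceraldehyde 3-phosphate dehydrogenase and a common loading control, was at 2151, 1956 and 2114 FPKM in Samples 4, 5 and 6, against 2129, 2162 and 2126 FPKM in Samples 1, 2 and 3. It was just past the threshold (log2 fold change −0.08, SE 0.02, adjusted p = 0.0507 from limma) and passed without Sample 4 (adjusted p = 0.00436), with a range of 0.00436 to 0.527 over its 12 alternatives. The nearness to the threshold rested on the scaling. The adjusted p from limma was 0.527 on the FPKM as deposited and 0.357 with libraries centred on their median. Eno3, the muscle enolase and the most abundant of the 7, was at 2439, 2273 and 2500 FPKM in Samples 4, 5 and 6, against 2337, 2406 and 2402 FPKM in Samples 1, 2 and 3. The groups overlapped (log2 fold change −0.02, adjusted p = 0.697). Pgk1 (phosphoglycerate kinase), Pgam2 (the muscle phosphoglycerate mutase), Eno1 (the enolase of other tissues) and Pkm (pyruvate kinase) had log2 fold changes of −0.03, 0.00, 0.03 and −0.04. The 0.00 of Pgam2 is set by quantile normalization, and its log2 fold change was 0.03 on the FPKM as deposited. Pgam1, the mutase of other tissues, was at only 4.20 ± 0.33 FPKM in Nogo-/- and 3.68 ± 0.24 FPKM in Nogo+/+ muscle, with no overlap and no call (adjusted p = 0.429).

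The muscle forms dominated in both genotypes. Pgam2 made up 99.7% ± 0.03 of both mutases in Nogo-/- and 99.8% ± 0.02 in Nogo+/+ muscle, and Eno3 97.2% ± 0.24 and 97.3% ± 0.07 of both enolases. Ldha, the lactate dehydrogenase subunit of fast muscle, was at 1536, 1465 and 1550 FPKM in Samples 4, 5 and 6, against 1501, 1538 and 1570 FPKM in Samples 1, 2 and 3. It supplied 86.7% ± 1.05 of the summed FPKM of Ldha and Ldhb, the heart-type subunit, in Nogo-/- muscle and 87.7% ± 0.76 in Nogo+/+ muscle. Neither lactate gene passed in limma, adjusted or not, at log2 fold changes of −0.03 and 0.05.

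Nor did the genes of the glycerol phosphate shuttle, which carries electrons from the cytosol to mitochondria. Its cytosolic enzyme Gpd1 was at 295, 291 and 308 FPKM in Samples 4, 5 and 6, against 295, 295 and 300 FPKM in Samples 1, 2 and 3, and its mitochondrial enzyme Gpd2 at 48.2 ± 2.80 FPKM in Nogo-/- and 47.6 ± 1.51 FPKM in Nogo+/+ muscle. Fbp2, the muscle fructose bisphosphatase that runs the opposite way to phosphofructokinase, was at 29.4, 38.7 and 32.4 FPKM in Samples 4, 5 and 6, against 29.7, 33.7 and 36.1 FPKM in Samples 1, 2 and 3. Values of both groups overlapped for these 3 genes, whose log2 fold changes were −0.06, −0.03 and −0.05.

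**Figure D3:**
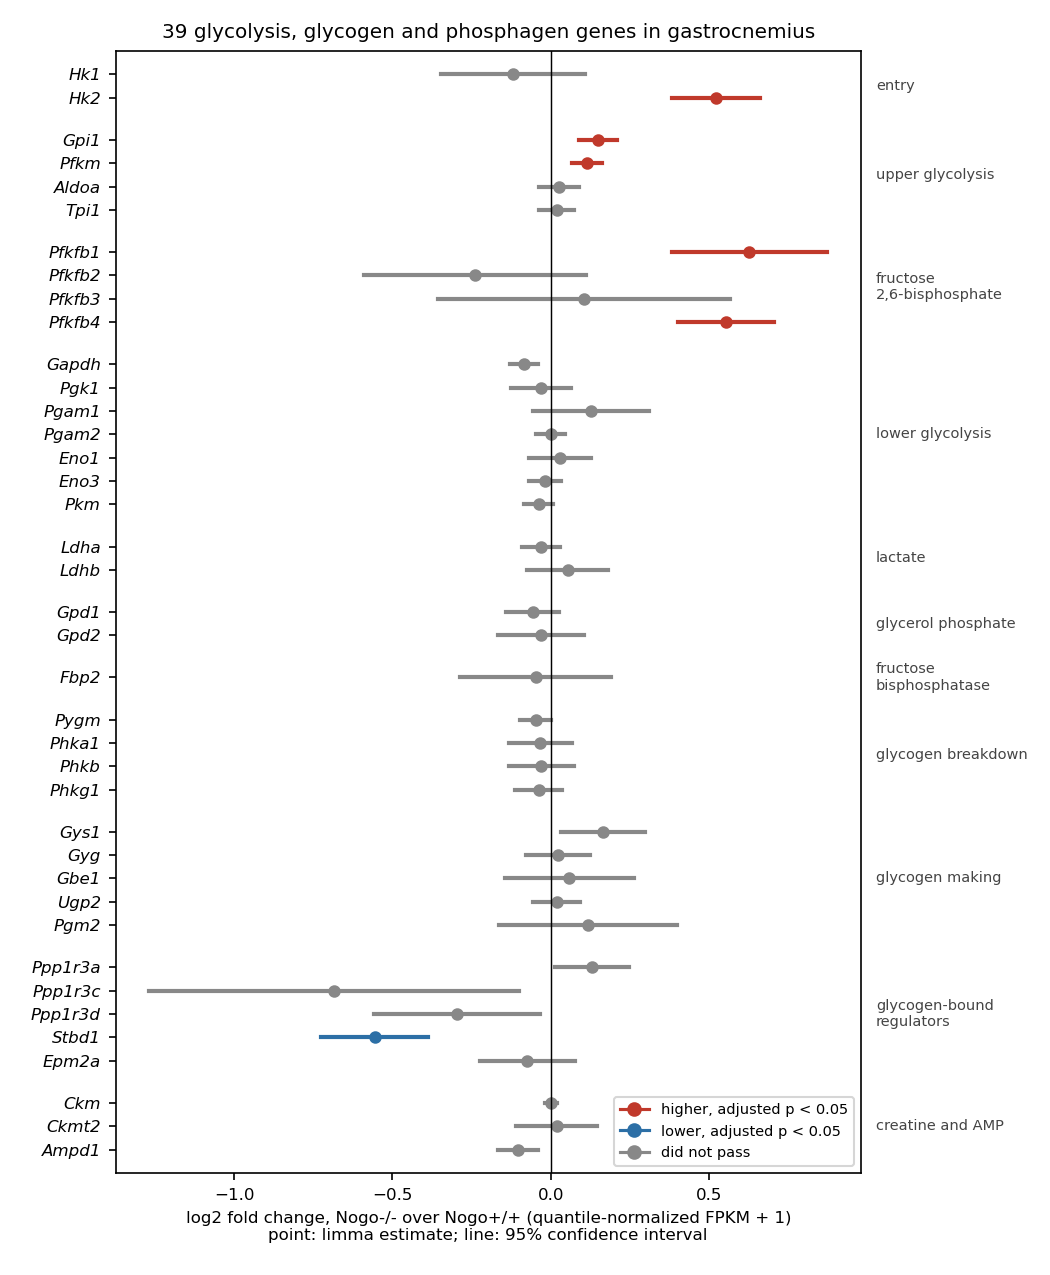
Log2 fold change of each of the 39 genes, Nogo-/- over Nogo+/+, on FPKM + 1 after quantile normalization (point, with the 95% confidence interval from limma as a line), ordered by role, with the 5 genes that rose in red, the 1 that fell in blue and the other 33 in grey. The 5 rises stand in the rows of entry, upper glycolysis and fructose 2,6-bisphosphate, from 0.11 for Pfkm to 0.63 for Pfkfb1, and the widest interval, −1.27 to −0.10, belongs to Ppp1r3c.

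None of the 4 genes of glycogen breakdown was called in limma, and 0 had an unadjusted p under 0.05, with log2 fold changes between −0.05 and −0.03. Pygm, the muscle phosphorylase, was at 1944, 1943 and 2002 FPKM in Samples 4, 5 and 6, against 1932, 1923 and 1927 FPKM in Samples 1, 2 and 3. Every Nogo-/- library was thus above every Nogo+/+ library by a small margin, and yet the log2 fold change was −0.05 after quantile normalization and 0.03 on the FPKM as deposited, so no direction is given for it. Phka1, Phkb and Phkg1, subunits of the kinase that switches phosphorylase on, had log2 fold changes of −0.03, −0.03 and −0.04. Phkg1 overlaps another gene on its strand, and its fragments may be shared.

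None of the 5 genes of glycogen making passed in limma, with only Gys1 at an unadjusted p under 0.05. Gys1, the muscle glycogen synthase, was at 154, 168 and 171 FPKM in Samples 4, 5 and 6, against 151, 142 and 136 FPKM in Samples 1, 2 and 3. The groups did not overlap, with a log2 fold change of 0.17 (SE 0.06, adjusted p = 0.159 from limma). Ugp2, which makes the UDP-glucose that the synthase uses, was at 243, 250 and 246 FPKM in Samples 4, 5 and 6, against 243, 236 and 232 FPKM in Samples 1, 2 and 3, with no overlap by a narrow margin and a log2 fold change of 0.02. Gyg, the glycogenin that primes the chain, and Gbe1, the branching enzyme, had log2 fold changes of 0.02 and 0.06. The identifier with the symbol Pgm2 was barely listed, at 1.37 ± 0.09 FPKM in Nogo-/- and 1.14 ± 0.28 FPKM in Nogo+/+ muscle. In mice the names of Pgm1 and Pgm2 have been exchanged over time, and the main phosphoglucomutase here was the gene now called Pgm1, at 538, 532 and 540 FPKM in Samples 4, 5 and 6, against 507, 542 and 541 FPKM in Samples 1, 2 and 3 (log2 fold change −0.00, adjusted p = 0.984 from limma).

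Among the 5 regulators bound to glycogen, Stbd1 fell and the others did not pass. Stbd1 (chr5:92603041-92606579, plus strand), a protein with a starch-binding domain that ties glycogen to membranes, was at 24.6, 23.1 and 26.2 FPKM in Samples 4, 5 and 6, against 33.4, 37.0 and 35.8 FPKM in Samples 1, 2 and 3. All Nogo-/- libraries lay below all Nogo+/+ libraries, with means of 24.6 ± 1.55 FPKM and 35.4 ± 1.84 FPKM (SD, n = 3 each). The log2 fold change was −0.56 (SE 0.07, interval −0.72 to −0.39, adjusted p = 0.00549 from limma).

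Ppp1r3c (chr19:36731731-36736653, minus strand), also called PTG, brings protein phosphatase 1 to glycogen and is the most abundant of the 5. It was at 105, 82.1 and 188 FPKM in Samples 4, 5 and 6, against 169, 191 and 194 FPKM in Samples 1, 2 and 3. Samples 4 and 5 lay below all Nogo+/+ libraries and Sample 6 among them, and the log2 fold change of −0.68 did not pass (SE 0.26, interval −1.27 to −0.10, adjusted p = 0.181 from limma). Without Sample 6, the library with the keratin transcripts, it was −1.03 with an adjusted p of 0.00255, and without Sample 5, the lowest library, it was −0.43 with an adjusted p of 0.339. Over its 12 alternatives the adjusted p ran from 0.00255 to 0.391.

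Other phosphatase subunits gave opposite signs without a call. Ppp1r3a, the large subunit of striated muscle, was at 41.1, 45.0 and 41.9 FPKM in Samples 4, 5 and 6, against 37.3, 37.7 and 37.5 FPKM in Samples 1, 2 and 3 (log2 fold change 0.13, adjusted p = 0.204). Ppp1r3d was at 1.72, 1.50 and 1.67 FPKM in Samples 4, 5 and 6, against 1.77, 2.15 and 2.54 FPKM in Samples 1, 2 and 3 (log2 fold change −0.30, adjusted p = 0.194), which rests on only about 71 to 78 fragments per Nogo-/- library and 80 to 119 per Nogo+/+ library. Neither gene overlapped between groups. Epm2a, laforin, which removes phosphate from glycogen, was at 35.3 ± 3.10 FPKM in Nogo-/- and 35.7 ± 0.17 FPKM in Nogo+/+ muscle. Of the 5 regulators, 4 had an unadjusted p under 0.05.

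Creatine kinase, Ckm, was the most abundant transcript of every library, at 6573, 6168 and 6543 FPKM in Samples 4, 5 and 6, against 6598, 6678 and 6524 FPKM in Samples 1, 2 and 3. It made up 1.52% to 1.60% of the summed FPKM of all genes in Nogo-/- and 1.62% to 1.66% in Nogo+/+ libraries. Quantile normalization gives the top gene of each library the same value, so its log2 fold change of 0.00 is set by the method, and it was −0.04 on the FPKM as deposited and −0.08 with median centring (adjusted p = 0.485 and 0.327 from limma). Ckmt2, the creatine kinase of muscle mitochondria, was at 775 ± 50.6 FPKM in Nogo-/- and 771 ± 20.1 FPKM in Nogo+/+ muscle. Ampd1, the muscle AMP deaminase, was at 662, 593 and 639 FPKM in Samples 4, 5 and 6, against 685, 649 and 670 FPKM in Samples 1, 2 and 3. The groups overlapped, since Sample 4 lay above Sample 2, and the log2 fold change of −0.10 did not pass (SE 0.03, adjusted p = 0.0786 from limma), though it did without Sample 4 (adjusted p = 0.0296, within a range of 0.0296 to 0.359 over its 12 alternatives). For Ampd1 the adjusted p from limma was 0.355 on the FPKM as deposited and 0.218 with median centring.

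The scale of comparison mattered for the small differences. Of the 39 genes, 25 kept 1 sign with quantile normalization, with FPKM as deposited and with median centring, and 14 did not. Fold changes were rounded to 3 decimals for this count, and a rounded 0 counted as no sign. Pgk1, Eno3, Aldoa and Pygm are among the 14. So are Ckm and Phkb, which had a rounded 0 under 1 scaling and values below 0 under the others. Called under each of the 3 scalings were 4 genes, namely Hk2, Pfkfb1, Pfkfb4 and Stbd1. The median of all genes was −0.01 with quantile normalization and 0.03 on the FPKM as deposited. Over all genes, 233 rose and 340 fell with quantile normalization, against 302 that rose and 234 that fell on the FPKM as deposited, so that 40.7% and 56.3% of the calls were higher. After quantile normalization, the intervals of the 10 genes with a mean over 1000 FPKM lay between −0.13 and 0.16. Only Pfkm among them was called. These intervals leave out the difference between scalings. For Ckm the interval was −0.02 to 0.02, whereas its log2 fold change was −0.08 with median centring.

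**Figure D4:**
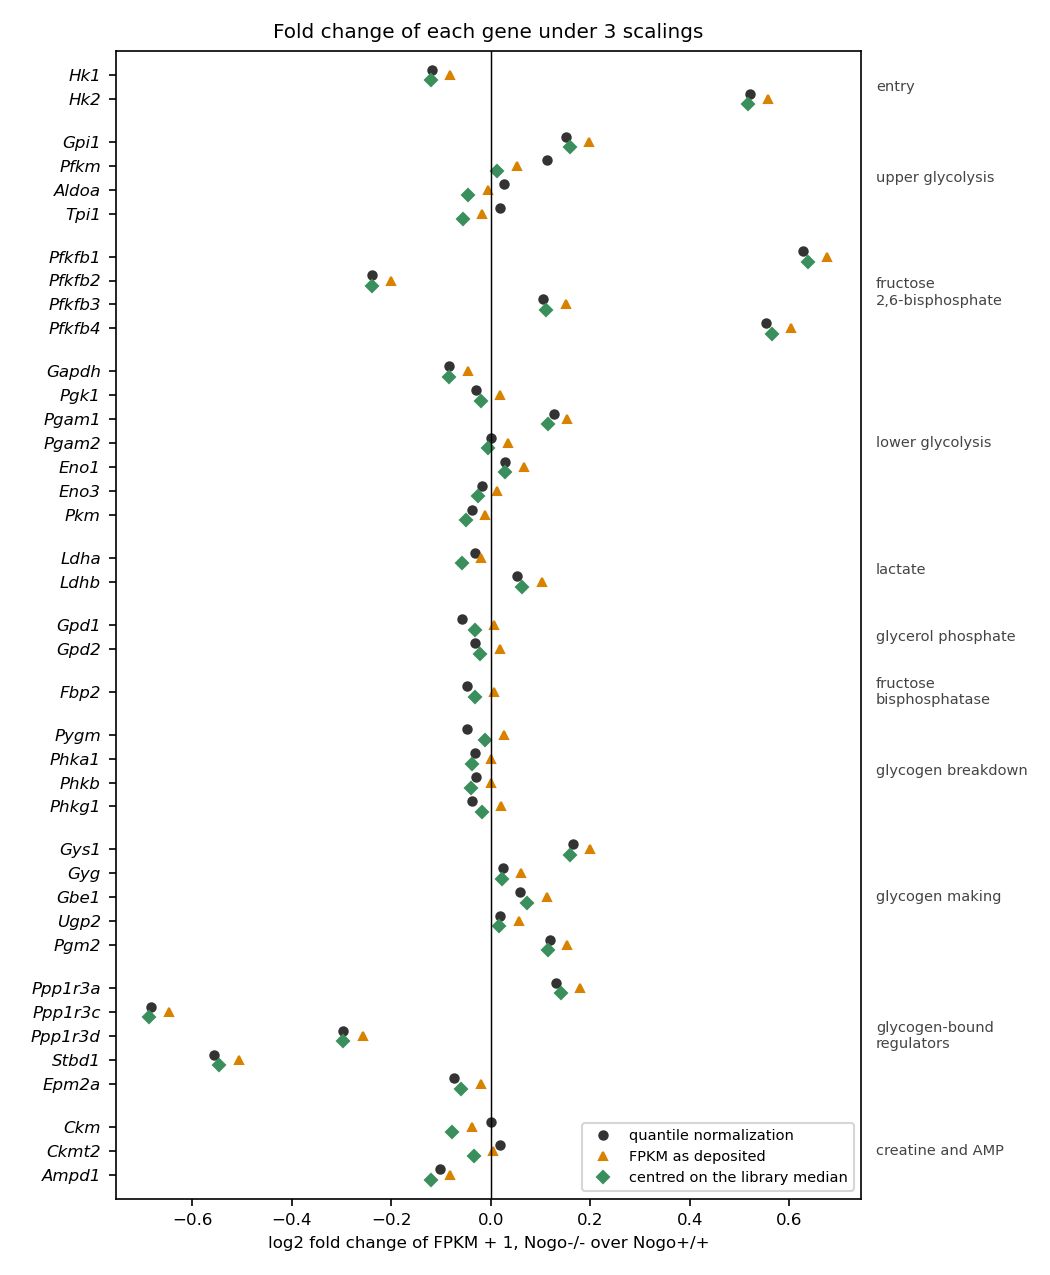
Log2 fold change of each of the 39 genes, Nogo-/- over Nogo+/+, on FPKM + 1 under 3 scalings, quantile normalization (black circles), FPKM as deposited (orange triangles) and libraries centred on their median (green diamonds), ordered by role. The symbols lie close together for Hk2, Pfkfb1, Pfkfb4 and Stbd1, whereas those of Pfkm spread from 0.11 to 0.01. Those of Pygm fall on both sides of 0, and those of Ckm on 0 and below it.

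Beyond the 39, 97 of 109 further genes were listed in the table. They belong to or regulate the same metabolism, and 13 of them are transcription factors of glycolytic genes. Of the 97, 7 were called (7.22%, beside 4.64% of all genes), 3 higher and 4 lower. Those higher were the ADP-dependent glucokinase Adpgk (log2 fold change 0.42, adjusted p = 0.0312 from limma), the lactate carrier Slc16a1 or MCT1 (0.31, 0.0285) and the transcription factor Myc (0.46, 0.0458). Slc16a1 was at 15.8, 17.5 and 15.6 FPKM in Samples 4, 5 and 6, against 12.3, 12.4 and 12.8 FPKM in Samples 1, 2 and 3, with no overlap. Those lower included the pyruvate dehydrogenase kinase Pdk4 (−0.35, adjusted p = 0.0369 from limma), the creatine transporter Slc6a8 (−0.33, 0.0225) and the muscle AMP-activated kinase subunit Prkag3 (−0.27, 0.00549). With single libraries left out, Prkag3 passed in 6 of 6 fits, Slc6a8 in 3, Pdk4 in 2, Adpgk and Slc16a1 in 1 each and Myc in 0. On the FPKM as deposited Pdk4 and Slc6a8 did not pass (adjusted p = 0.0673 and 0.0536 from limma), and without a mean-variance trend neither these genes nor Myc passed (0.0945 for Pdk4, 0.0649 for Slc6a8 and 0.0557 for Myc).

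By list, 1 of 8 other glycolytic genes and 1 of 12 genes of glucose and lactate transport rose, with none lower. None of 18 other glycogen genes and none of 8 genes of the pentose phosphate pathway passed in limma, with 2 and 3 of them at an unadjusted p under 0.05. Of 14 genes of pyruvate entry into mitochondria, 16 of creatine and adenylate metabolism and 8 of AMP-activated kinase, 1 each fell. The glucose carrier of muscle, Slc2a4 or GLUT4, was at 245 ± 6.96 FPKM in Nogo-/- and 229 ± 2.78 FPKM in Nogo+/+ muscle, which did not overlap and did not pass (log2 fold change 0.05, adjusted p = 0.414 from limma).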

How the data were processed

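Polyadenylated RNA of gastrocnemius from 3 Nogo-/- and 3 Nogo+/+ mice, which the study calls biological replicates, was sequenced from stranded libraries. The tools named in the submitters' processing notes are CASAVA 1.8.2 (base calls), cutadapt 1.4.2 (adapters), STAR 2.6.1 (alignment) and, for the gene values, Cufflinks 2.2.1, with GRCm38.p6 as the genome. FPKM, the unit of the values used here, were deposited for genes that reached an FPKM of 1 in at least 1 library. Isoforms such as those of Pkm are not told apart, and how fragments shared with processed copies (Gapdh, Pgk1, Ldha, Aldoa) were counted is not given in the sources used here. A further 6 columns of values per library, normalized by the authors on the log2 scale, were left out because they could not be matched to single libraries.

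Symbols and coordinates came from GENCODE M21 for 12342 of 12353 identifiers. FPKM are not counts, so log2(FPKM + 1) after quantile normalization was fitted with limma 3.58.1 in R 4.3.3 (mean-variance trend, no covariates, two-sided), adjusted over all 12353 genes with a threshold of 0.05. Single called genes were also compared by two-sided exact permutation tests of FPKM, whose smallest p with 3 against 3 is 0.1. That value was reached by Rtn4, Hk2, Gpi1, Pfkfb1, Pfkfb4 and Stbd1, whereas Pfkm gave an exact p of 0.2. Fragments per library were estimated from single-transcript genes, as the depth that put the largest share of low values within 0.1 of a whole number. That share was 93.4% to 97.4%. The 20% given by chance holds for a depth fixed in advance, so it is no measure for a share that was maximized. The fit was tested on simulated data. There were 12 alternative fits, which left out each library in turn, kept the FPKM as deposited, centred libraries on their median, set the pseudocount to 0.1, kept genes with a mean FPKM of 1 or more, dropped the trend or added array weights. Other software was Python 3.11.15, pandas 2.3.3, NumPy 2.4.6, matplotlib 3.10.9 and SciPy 1.17.1.

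The members and lists were chosen with earlier results of these data known. Full values are given for called genes and for the most abundant gene of each role, and fold changes for genes at an unadjusted p under 0.05 and for called genes of the other lists. Values of other genes, and the promoters, were picked after they had been seen. A gene of the other lists that this rule takes in is not reported here but stays in the counts.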

Additional observations from a re-analysis of the deposited data

How the results depend on the processing

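Of the 6 called genes, Hk2, Pfkfb4 and Stbd1 passed in all 12 alternatives, and none of the 12 genes at an unadjusted p under 0.05 changed sign. The 6 calls among the 39 genes became 4 with median centring and 4 without a mean-variance trend, 5 without quantile normalization and 8 with array weights, which added Gapdh and Ampd1. With single libraries left out, there were 3 to 7 calls among the 39 genes (3 without Sample 2), 188 to 434 among all genes against 573 with every library (301, 188, 192 and 378 without Samples 1, 2, 3 and 4), and 1 to 5 among the other pathway genes against 7 (3, 1, 1, 4 and 4 without Samples 1, 2, 3, 4 and 6). Such counts do not say which genes were called. Without a trend, 4 of the other pathway genes passed. The median of the 39 genes moved to −0.0211 with median centring, against an SD of 0.0202 over the Nogo-/- libraries. Rtn4 passed in every fit. No paired analysis was possible because no replicate number stands in the column names of the table.

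With 3 mice per group, single libraries decided several calls, and the FPKM as deposited keep no counts. Genes under 10 FPKM (Hk1, Pfkfb2, Pgam1, Pgm2 and Ppp1r3d) rest on the fewest fragments for their length. Transcript levels do not give enzyme activity or glycogen content, which were not measured in these files.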

Other observations

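In the pentose phosphate pathway, which branches from glucose 6-phosphate and was looked at after its values were seen, the summed FPKM of 8 genes was 184 ± 11.1 in Nogo-/- and 158 ± 5.76 in Nogo+/+ muscle (SD, n = 3 each), with 194, 186 and 172 in Samples 4, 5 and 6, all above the Nogo+/+ libraries (155 to 165). Tkt, transketolase, was at 26.0, 18.9 and 15.9 FPKM in Samples 4, 5 and 6, against 12.9, 14.9 and 15.1 FPKM in Samples 1, 2 and 3. The summed adipocyte markers, at 945, 605 and 493 FPKM in Samples 4, 5 and 6, had the same order within the Nogo-/- libraries. So did 8 macrophage markers, at 117, 89.7 and 72.1 FPKM, and 6 Schwann cell markers, at 311, 306 and 253 FPKM. The sums of these 2 lists overlapped between the groups. The other marker lists had other orders, and the part of any cell type in these values was not tested. Transaldolase Taldo1 (log2 fold change 0.15, adjusted p = 0.0998 from limma) and Tkt (0.41, adjusted p = 0.173) did not pass. The list's median log2 fold change was 0.16, beside −0.01 over all genes.

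The subunits of AMP-activated kinase and its upstream kinase, also picked after their values were seen, summed to 363 ± 7.76 FPKM in Nogo-/- and 395 ± 6.0 FPKM in Nogo+/+ muscle, with no overlap. Prkag3 was at 95.8, 91.6 and 93.4 FPKM in Samples 4, 5 and 6, against 111, 109 and 112 FPKM in Samples 1, 2 and 3, and Prkab2 at 95.6 ± 5.93 FPKM in Nogo-/- and 111 ± 6.44 FPKM in Nogo+/+ muscle (log2 fold change −0.24, adjusted p = 0.104 from limma).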
